A study of Mus musculus with 18 samples.

Results

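Mouse iPSCs made with the 4 Yamanaka factors Oct4, Sox2, Klf4 and c-Myc (OSKM) were compared with mouse embryonic stem cells (mESCs) by gene expression array. The members were the arrays labelled OSKM (4 clones) and mESC (3 clones), 7 of the 18 arrays of the series, with all 45037 probe sets that were not controls. The other 11 arrays were of iPSCs made with EpCAM, its extracellular domain EpEX and either Oct4 or Klf4 (OE + EpEX and KE + EpEX), and of mouse embryonic fibroblasts (MEFs). They are given only where a level needs a point of reference.

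All samples carried the same strain label, with the doxycycline-responsive transactivator rtTA*M2 at the Rosa26 locus and the reporter allele Pou5f1tm2Jae, in which GFP marks the Oct4 locus. OSKM iPSCs came from MEFs of E13.5 embryos, which were nucleofected with 2.5 μg of PB-TET-OSKM, a doxycycline-inducible PiggyBac transposon, and kept on feeder cells with doxycycline at 1.5 μg/mL for 21 days in medium with LIF. Culture went on until colonies with strong GFP were visible. The methods describe LIF medium for ESCs as well, and feeder MEFs under both cell types for staining. The origin and passage of the mESC clones and their feeder state before the arrays were not given in the sources used here, and culture history and cell type cannot be told apart in this comparison. Replicates were different clones of each type, so p-values measure the spread between these clones. On how RNA was extracted and labelled the sources disagree, with Trizol and biotin in the labels and RNeasy and Cy3 in the methods.

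Oct4 (Pou5f1), Sox2 and Nanog form the core of the transcription factor network that keeps embryonic stem cells self-renewing. Naive pluripotency, the state of the preimplantation epiblast and of mESCs in LIF, is marked in addition by factors such as Zfp42 (Rex1), Nr5a2, Esrrb, Tfcp2l1, Klf5 and Tbx3. On the way to the formative and primed states of the postimplantation epiblast, naive factors fall while the de novo DNA methyltransferase Dnmt3b and the factor Otx2 rise. Reprogramming from fibroblasts also involves loss of mesenchymal genes and gain of epithelial genes.

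Oct4 recognises the octamer ATGCAAAT. This motif was looked for on both strands of the RefSeq promoter windows (build GRCm38.p6, 250 bases before to 50 after the annotated start) of the genes named on the arrays. It was the only motif searched. Among genes called lower in OSKM iPSCs than in mESCs, 4 of the 22 that had a window held it (Zfp42, Sfrp2, Tspan13 and Pnma5), or 18.2%. Among genes called higher, 1 of 27 did (Tnc), or 3.7%. The calls of Tspan13 and Pnma5 were lost after quantile normalization (−0.81 and −0.83). Those of Sfrp2 and Tnc were lost with all 18 arrays in the fit, while that of Zfp42 held under all 15 alternatives. Of all 27025 genes with a window, 1.97% held it, and of the 511 with a symbol on the array lists 3.33%. The 4 windows with the octamer and that of Pou5f1 are shown 5′ to 3′ on the strand of each gene. Capitals mark the octamer, which lay on the opposite strand in all 4, as ATTTGCAT. It began 186 bases before the start of Zfp42, 47 before that of Sfrp2, 120 before that of Tspan13 and 78 before that of Pnma5. The windows lie at chr17:35505782-35506081 (plus strand, the first of 2 windows of the gene), chr8:43306960-43307259 (minus), chr3:83766071-83766370 (plus), chr12:36042429-36042728 (minus) and chrX:73037054-73037353 (minus). A match says that these letters are present, not that Oct4 was bound there.
Pou5f1: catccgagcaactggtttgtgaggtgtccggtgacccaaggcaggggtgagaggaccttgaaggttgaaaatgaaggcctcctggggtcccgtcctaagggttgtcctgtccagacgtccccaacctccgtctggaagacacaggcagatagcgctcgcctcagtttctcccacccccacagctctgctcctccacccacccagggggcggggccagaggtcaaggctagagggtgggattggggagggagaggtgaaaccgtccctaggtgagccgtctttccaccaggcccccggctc
Zfp42: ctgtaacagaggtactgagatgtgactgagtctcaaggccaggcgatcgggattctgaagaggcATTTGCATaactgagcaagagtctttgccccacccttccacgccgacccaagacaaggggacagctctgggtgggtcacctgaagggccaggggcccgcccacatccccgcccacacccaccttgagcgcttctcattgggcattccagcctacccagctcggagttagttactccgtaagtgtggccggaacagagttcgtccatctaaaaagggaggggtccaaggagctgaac
Sfrp2: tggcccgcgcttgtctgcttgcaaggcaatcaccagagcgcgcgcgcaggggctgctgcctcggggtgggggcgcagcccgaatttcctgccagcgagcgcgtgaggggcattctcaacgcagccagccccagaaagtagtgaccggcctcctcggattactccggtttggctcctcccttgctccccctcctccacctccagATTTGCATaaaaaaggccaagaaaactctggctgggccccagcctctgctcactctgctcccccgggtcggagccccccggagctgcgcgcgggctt
Tspan13: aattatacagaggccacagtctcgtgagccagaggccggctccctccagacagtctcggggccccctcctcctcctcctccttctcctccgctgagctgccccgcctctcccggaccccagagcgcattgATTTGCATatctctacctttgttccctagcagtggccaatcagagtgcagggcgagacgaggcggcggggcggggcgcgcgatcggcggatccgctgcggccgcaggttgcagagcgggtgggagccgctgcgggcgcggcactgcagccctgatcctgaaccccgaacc
Pnma5: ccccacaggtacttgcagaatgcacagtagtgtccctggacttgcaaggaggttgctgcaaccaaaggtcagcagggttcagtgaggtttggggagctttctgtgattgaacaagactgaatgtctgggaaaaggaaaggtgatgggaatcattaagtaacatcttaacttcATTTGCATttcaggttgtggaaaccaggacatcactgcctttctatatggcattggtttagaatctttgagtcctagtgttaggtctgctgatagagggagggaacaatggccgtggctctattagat

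The OSKM clones were close to one another, as were the mESC clones. Between 2 OSKM clones a median of 11.5 probe sets (6 to 67 over 6 pairs) lay at least 1 log2 unit apart, between 2 mESC clones 217 (87 to 224 over 3 pairs), and between an OSKM and an mESC clone 2208 (1688 to 2581 over 12 pairs). The median SD of a probe set was 0.115 in OSKM iPSCs and 0.14 in mESCs. Among named probe sets, S1pr3 (1438658_a_at), a sphingosine-1-phosphate receptor, had the widest range over the OSKM clones, with −0.32, −0.57, −0.84 and −1.65 in clones 1 to 4. Comp, Zic2, Sfrp2 and Cyr61 followed, with ranges of 0.95, 0.93, 0.91 and 0.88.

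All levels here are log2 values that were centred on the median of the same probe set over the 18 arrays. A level therefore places an array among the other arrays for that probe set, and it says neither how abundant the transcript was nor whether it was detected. A probe set was called when its limma adjusted p was under 0.05 and the group means differed by at least 1 on the log2 scale, which is 2-fold. Differences are OSKM minus mESC.

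OSKM iPSCs and mESCs differed in 1765 of the 45037 probe sets (3.92%), of which 889 (1.97% of all tested) were higher and 876 (1.95%) lower in OSKM iPSCs. The median difference over all probe sets was −0.02 and the median size 0.15, and for 92.1% of them the 95% interval lay within 1 log2 unit of 0. At least 8-fold were 43 higher and 25 lower probe sets, and at least 32-fold 2 and 3. The values of the groups did not overlap in 14117 probe sets (31.3%). The plot of all probe sets shows both arms.

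**Figure D1:**
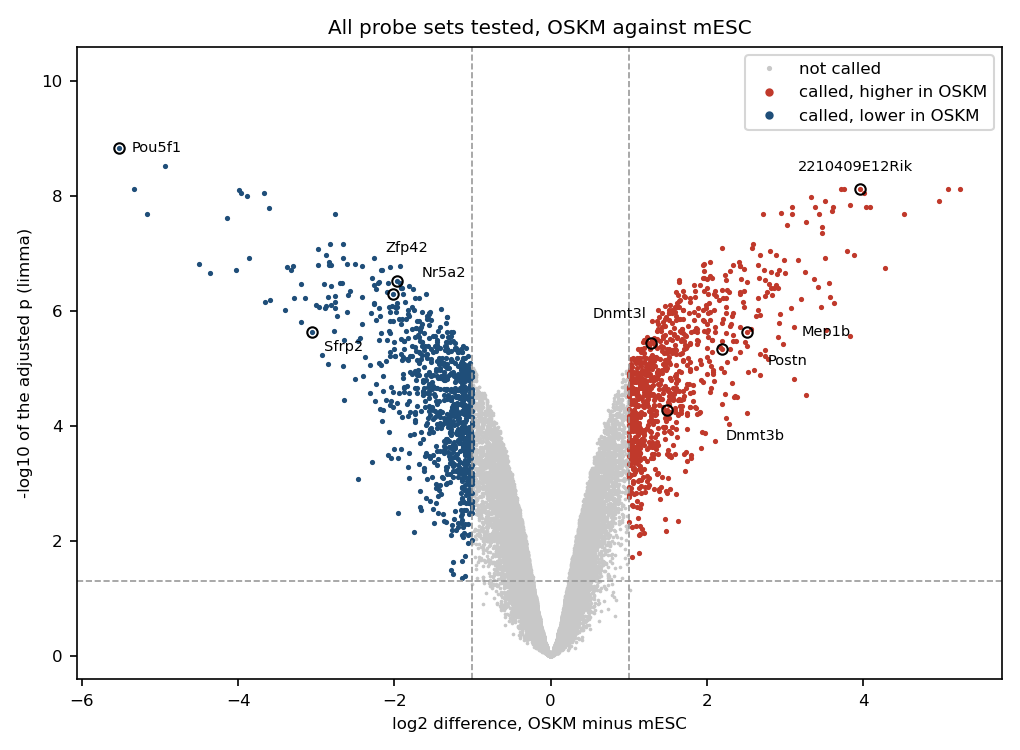
Each point is a probe set, with the log2 difference of OSKM minus mESC on the x axis and −log10 of the limma adjusted p on the y axis. Red points are the 889 called higher and blue points the 876 called lower in OSKM iPSCs, dashed lines mark the thresholds, and circles mark named genes, of which Pou5f1 lies furthest left at −5.52.

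Gene symbols were given for 931 probe sets, all of which the authors had listed as higher (469) or lower (462) than in MEFs on these same arrays. They are thus genes that separate pluripotent cells from fibroblasts and are no sample of the whole transcriptome. Of the 931, 72 were called (7.73%, beside 3.92% of all probe sets), 45 higher and 27 lower. Of these, 71 did not overlap between groups, beside 1758 of all 1765 called probe sets. Members of the gene lists below are all among the 931, so the shares of named probe sets are the ones to set beside list counts. After quantile normalization 64 were called, 31 higher and 33 lower, of which 44 were among the 72. With all 18 arrays in the fit 48 of the 72 remained. Quantile normalization gives all arrays one distribution. The SD over probe sets of the deposited values was 0.193 to 0.222 in OSKM and 0.393 to 0.422 in mESC arrays. By construction it therefore narrows the spread of mESC values and widens that of OSKM values. Differences can become smaller or larger for this reason, so a larger one after it is no added evidence. Likewise, a call lost after it may be lost through this change of spread alone. Of the 469 probe sets higher than in MEFs, 29 were called higher and 14 lower in OSKM iPSCs than in mESCs. Of the 462 lower than in MEFs, 16 were called higher and 13 lower.

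**Figure D2:**
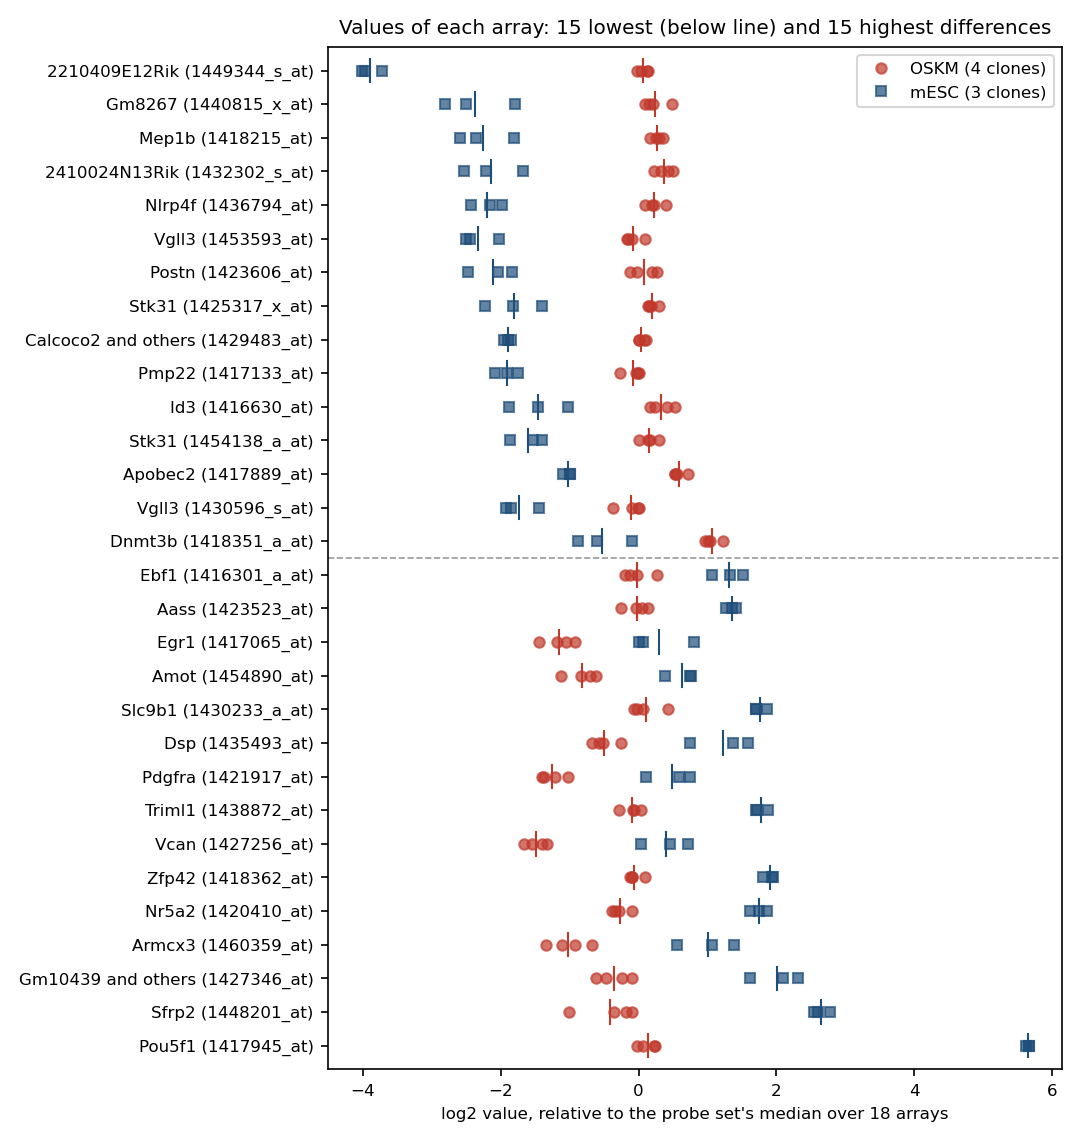
Log2 values of each array (x axis, relative to the median of the probe set over 18 arrays) for the 15 named probe sets highest and the 15 lowest in OSKM iPSCs against mESCs. Red circles are the 4 OSKM clones, blue squares the 3 mESC clones and vertical ticks the group means. Rows were taken only from called probe sets whose groups did not overlap, so the groups are apart in each row by selection.

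Oct4 itself showed the largest difference of any named gene. Pou5f1 (1417945_at) was at 5.62, 5.66 and 5.66 in the 3 mESC clones and at 0.24, 0.23, 0.07 and −0.03 in the OSKM clones. The OSKM values lay far below the mESC values and above the MEF values, whose mean was −3.68 ± 0.43 (SD, n = 3). The difference was −5.52 (95% interval −5.72 to −5.31, limma adjusted p = 1.44e-09), or 45.8-fold. It was −3.52 after quantile normalization. A single probe set carried the symbol Pou5f1, and its position relative to the GFP insertion of the reporter allele or to the transfected Oct4 cDNA is not given in the sources used here. By quantitative PCR and Western blot the paper found Oct4 RNA and protein in its iPSCs comparable to mouse ESCs. It reported the same for Oct4 immunofluorescence in each iPSC group and for flow cytometry of OE + EpEX and KE + EpEX iPSCs. Methylation of the Oct4 promoter in its iPSCs was also described as similar to ESCs. Why this probe set differs from those assays was not tested.

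Zfp42 and Nr5a2, both markers of the naive state, were also lower in OSKM iPSCs. Zfp42 (1418362_at), the zinc finger protein Rex1, had values of 1.95, 1.94 and 1.81 in mESCs and of 0.09, −0.10, −0.09 and −0.13 in OSKM iPSCs. The difference was −1.96 (−2.15 to −1.76, limma adjusted p = 3.02e-07), or 3.88-fold. Nr5a2 (1420410_at), an orphan nuclear receptor that can drive Pou5f1 transcription, was at 1.75, 1.86 and 1.62 in mESCs and at −0.09, −0.28, −0.34 and −0.38 in OSKM iPSCs. It differed by −2.02 (−2.24 to −1.79, limma adjusted p = 4.98e-07). For both genes the groups were apart by more than 1 log2 unit, and the calls held under all 15 alternatives. In MEFs, against which both were listed as higher, the means were −8.15 and −4.15.

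Pou5f1 and Zfp42 were the only called members of the core network. Of 24 probe sets for 18 core pluripotency genes, 2 were called lower and 0 higher. This count is near the 7.73% called of the 931 named probe sets. Without the fold threshold 8 of the 24 had a limma adjusted p under 0.05, beside 376 of the 931 named. An unadjusted p under 0.05 was reached by 9, beside 485 of the 931. The median difference of the core list was −0.02, equal to that of all probe sets, and the 22 probe sets that were not called lay between −0.57 and 0.91. Nanog (1429388_at), a homeobox factor of the core, was at 0.04, 0.01, −0.14 and −0.15 in OSKM iPSCs and at −0.02, −0.11 and −0.01 in mESCs, so that the groups overlapped. Its difference was −0.02 (−0.21 to 0.17). Sox2 (1416967_at), which binds DNA together with Oct4, differed by −0.34 (−0.55 to −0.14, limma adjusted p = 0.0192), short of 2-fold. Nodal, a TGF-beta family ligand, came closest to a call, with 0.91 (0.70 to 1.12, limma adjusted p = 6.28e-05) and 0.80 in its 2 probe sets, and Mycn differed by −0.39 (limma adjusted p = 0.00647). Sall4, Tdgf1 and Nr0b1 differed by 0.26, −0.15 and −0.05, and their intervals lay within 1 log2 unit of 0. So did those of Esrrb (0.09), of the naive list, and Dppa5a (−0.04).

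The naive list gave 2 called lower (Nr5a2 and Zfp42) and 0 higher of 18 probe sets for 14 genes, beside 7.73% called of named probe sets. Its median was −0.10. The 16 probe sets that were not called had differences between −0.58 and 0.70, and 5 of them had a limma adjusted p under 0.05. Tcl1 (1422458_at), a coactivator of Akt, differed by −0.58 and Klf5 by −0.37, whereas Tbx3 differed by 0.57 and 0.16 in its 2 probe sets, Tet1, a 5-methylcytosine dioxygenase, by 0.70, 0.41 and 0.12 in 3, and Tfcp2l1 by 0.43. Among the Dppa genes, which mark germ cells and pluripotent cells, Dppa2 gave 0.77 and 0.69 in its 2 probe sets and Dppa3, Dppa4 and Dppa5a lay between −0.24 and 0.13. Of 5 Dppa probe sets, 0 were called by limma. The 2 of Dppa2 had an adjusted p under 0.05 by limma and by the methods' t-test, and 3 of the 5 an unadjusted p under 0.05. In the same order, 376, 301 and 485 of the 931 named probe sets did. Over the 4 pluripotency lists together, 6 of 47 probe sets were called, 2 higher and 4 lower. The share called was 7.73% of named probe sets, 9.17% of those listed higher than in MEFs and 3.92% of all. Of the 47, 38 had a 95% interval within 1 log2 unit of 0, beside 85.5% of named probe sets.

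**Figure D3:**
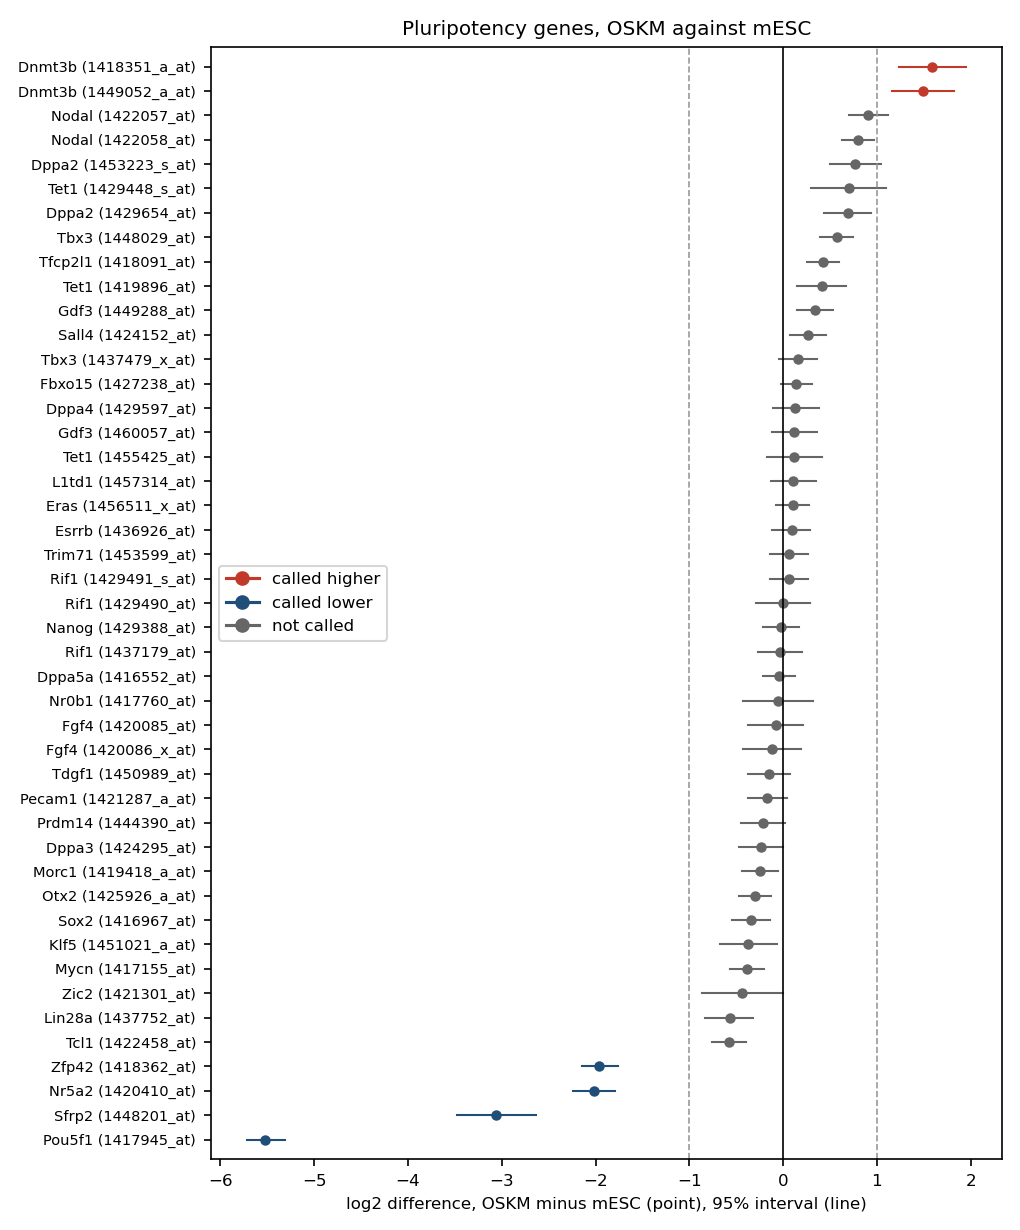
Log2 differences of OSKM minus mESC (points) with 95% intervals (lines) for 45 of the 47 probe sets of the core, naive, formative and Dppa lists, with dashed lines at 2-fold. Pou5f1, Sfrp2, Nr5a2 and Zfp42 lie left of −1 and both Dnmt3b probe sets right of 1, while the other 39 lie between −0.58 and 0.91.

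The de novo DNA methylation genes Dnmt3b and Dnmt3l were higher in OSKM iPSCs. Dnmt3b (1418351_a_at), which methylates unmethylated CpG sites, was at 1.23, 1.03, 0.97 and 1.01 in OSKM iPSCs and at −0.61, −0.09 and −0.88 in mESCs. The difference was 1.59 (1.23 to 1.95, limma adjusted p = 5.71e-05), or 3.01-fold, and the other Dnmt3b probe set (1449052_a_at) gave 1.49. Dnmt3l (1425035_s_at), a cofactor of the de novo enzymes without catalytic activity of its own, was between 1.18 and 1.33 in OSKM iPSCs against −0.04, 0.04 and −0.17, a difference of 1.28 (1.09 to 1.47, limma adjusted p = 3.5e-06) that was 2.10 after quantile normalization. No OSKM clone overlapped an mESC clone for either gene. The levels of OE + EpEX iPSCs had means of 0.56 for Dnmt3b (1418351_a_at) and 0.67 for Dnmt3l, and those of KE + EpEX iPSCs −0.01 and 0.01. The OSKM mean was the highest of the 5 groups for both, but the groups overlapped. OE + EpEX clone 1 was at 1.12 for Dnmt3b, within the OSKM values, and KE + EpEX clone 3 was at 1.40 for Dnmt3l, above all of them. The order was not tested.

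In the list of DNA methylation and chromatin genes these 3 probe sets were called higher and 0 lower of 20. Of the 931 named probe sets, 45 were called higher and 27 lower. The list's median was 0.07. The maintenance factor Uhrf1, the remodeller Hells and the H3K27 methyltransferase Ezh2 differed by at most 0.10 in size. Jarid2, a partner of the Polycomb complex PRC2, gave 0.89, 0.36 and 0.25 in 3 probe sets, and Mtf2, another, gave values between −0.48 and −0.06 in 4. Neither was called. Of the other formative genes, Otx2 differed by −0.30, Zic2 by −0.44 and Lin28a by −0.57. Sfrp2 (1448201_at), a secreted Wnt modulator placed in the formative list, was at 2.78, 2.55 and 2.61 in mESCs and at −0.10, −1.01, −0.18 and −0.36 in OSKM iPSCs. It differed by −3.06 (−3.48 to −2.63, limma adjusted p = 2.27e-06), or 8.32-fold. It lost the call when all 18 arrays shared one estimate of the spread (limma adjusted p = 0.105), a fit that takes in the MEF arrays, whose Sfrp2 values were 1.55, 8.56 and 8.55.

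Rhox5 and Stk31, both placed in the list of germline and 2-cell-like genes, were also higher in OSKM iPSCs. Rhox5 (1423429_at), an X-linked homeobox gene, was at 0.22, 0.22, 0.19 and 0.21 in OSKM iPSCs and at −1.26, −1.14 and −1.39 in mESCs, a difference of 1.48 (1.29 to 1.67, limma adjusted p = 1.27e-06). Both probe sets of Stk31, a germ cell kinase-like protein with a Tudor domain, were higher, with means of 0.19 and −1.81 in OSKM iPSCs and mESCs for one (1425317_x_at) and a difference of 1.75 for the other (1454138_a_at). The OSKM clones scattered by an SD of only 0.02 for Rhox5. In all, 3 of 17 probe sets for 15 germline and 2-cell-like genes were called higher and 0 lower, with a median of 0.17. Called higher were 45 of the 931 named probe sets, 29 of the 469 listed higher than in MEFs and 1.97% of all. Both Stk31 probe sets are among the 3, so the calls come from 2 genes. Ddx4, an RNA helicase of germ cells, differed by 0.78, whereas Dazl gave −0.12 and −0.13 and Trap1a −0.02. Rhox13, another member of the Rhox cluster, was called in the opposite direction at −1.01, and this call was lost with arrays centred on their medians, after quantile normalization, with the replicate block, and without OSKM clone 4 (−0.98) or mESC clone 1 (−0.99).

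Several genes outside the lists stood highest in OSKM iPSCs relative to mESCs. The uncharacterised 2210409E12Rik (1449344_s_at) was at −0.03, 0.03, 0.13 and 0.12 in OSKM iPSCs and at −4.02, −3.72 and −3.97 in mESCs. Its difference of 3.96 (3.75 to 4.17, limma adjusted p = 7.54e-09) was 15.6-fold and the largest upward difference of any named probe set. It was 2.55 after quantile normalization. Gm8267, Mep1b (the beta subunit of the metalloprotease meprin), 2410024N13Rik and Nlrp4f, an oocyte NLR family gene, followed with 2.61, 2.52, 2.51 and 2.42. Each of these had all mESC values at or below −1.68 and all OSKM values at or above −0.03. The MEF means of these 5 probe sets lay between −7.62 and −6.03. All 5 came from the list of probe sets higher than in MEFs and were chosen as highest in OSKM iPSCs. The order of the groups is therefore no finding. Probe sets whose name ends in s_at or x_at, as for 2210409E12Rik, Gm8267 and 2410024N13Rik, can read several related transcripts.

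Apobec2 (1417889_at), a member of the cytidine deaminase family, was higher by 1.62 (1.43 to 1.80). Dusp9, a phosphatase that restrains ERK signalling in mESCs, was higher in both of its probe sets (1.14 and 1.03), as was Ak4, a mitochondrial adenylate kinase (1.22 and 1.14). Folr1, a folate receptor, was higher by 1.24, the ribonuclease P subunit Rpp25 by 1.29 and the testis cytochrome c Cyct by 1.31. Of these, the calls of Ak4 and Cyct were lost after quantile normalization and that of Dusp9 with all 18 arrays in the fit. Among genes lower in OSKM iPSCs were Triml1 (−1.86), a tripartite motif protein of early embryos, the sodium proton exchanger Slc9b1 (−1.66, or −1.06 after quantile normalization), and Aass (−1.37), the first enzyme of lysine breakdown. The X-linked gene Bex2 differed by −1.03. The calls of Aass and Bex2 were lost after quantile normalization. Lower too was a probe set shared by Ott, Luzp4 and other X-linked gene copies (−2.37), which cannot be assigned to 1 gene.

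Epithelial genes mostly had small positive differences. Of 17 probe sets for 11 genes, 12 had a positive difference. The list's median was 0.51, against 0.01 for named and −0.02 for all probe sets. A limma adjusted p under 0.05 was reached by 14 (14 also by the methods' t-test). This stands beside 376 of the 931 named, 238 of the 469 listed higher than in MEFs and 10755 of all 45037 probe sets. At 2-fold 1 was called higher (Cldn4) and 1 lower (Dsp). Cldn4 (1418283_at), a tight junction claudin, was at −0.03, 0.12, 0.13 and −0.08 in OSKM iPSCs and at −1.35, −1.92 and −1.04 in mESCs, a difference of 1.47 (1.08 to 1.86, limma adjusted p = 0.000164). Dsp (1435493_at), the desmosomal plaque protein desmoplakin, was at −0.57, −0.25, −0.51 and −0.68 against 1.59, 0.74 and 1.37, a difference of −1.73 (−2.14 to −1.32, limma adjusted p = 7.73e-05). Both calls held under all 15 alternatives. Epcam, the adhesion protein that the study expressed together with Oct4 or Klf4 in its other iPSCs, differed by 0.54 (0.30 to 0.78) and E-cadherin (Cdh1) by −0.50.

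Fibroblast markers were called in both directions. Of 22 probe sets for 17 genes, 4 were called higher (Postn, Col5a2, Col6a3 and Cdh11) and 2 lower (Pdgfra and Pdgfrb), with a list median of 0.51. Of the 462 named probe sets listed lower than in MEFs, 6.28% were called, 16 higher and 13 lower, with a median of 0.04. The share called was 7.73% of all named probe sets (median 0.01) and 3.92% of all. After quantile normalization 1 was called higher and 3 lower, with a median of 0.27, and with all 18 arrays in the fit 1 was higher and 0 lower. The median stayed above 0 under quantile normalization, which narrows mESC and widens OSKM values as said, while the calls in each direction depended on the fit. Postn (1423606_at), the matrix protein periostin, was at 0.26, 0.19, −0.02 and −0.13 in OSKM iPSCs and at −2.04, −2.47 and −1.84 in mESCs, a difference of 2.19 (1.86 to 2.53, limma adjusted p = 4.46e-06). Col5a2, Col6a3 and the mesenchymal cadherin Cdh11 differed by 1.46, 1.24 and 1.16, and by 0.91, 0.73 and 0.45 after quantile normalization. In MEFs these 4 had means between 5.21 and 7.33, as they came from the list of probe sets lower than in MEFs.

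Both platelet-derived growth factor receptors of fibroblasts went the other way. Pdgfra (1421917_at), also a marker of primitive endoderm, was at −1.40, −1.37, −1.21 and −1.03 in OSKM iPSCs and at 0.75, 0.59 and 0.11 in mESCs, a difference of −1.74 (−2.07 to −1.40, limma adjusted p = 2.12e-05). It was −2.65 after quantile normalization and lost the call with all 18 arrays in the fit (limma adjusted p = 0.0674). Pdgfrb (1436970_a_at) was at 1.22, 0.03 and 1.06 in mESCs and between −0.70 and −0.31 in OSKM iPSCs, a difference of −1.23 (−1.77 to −0.68, limma adjusted p = 0.0041). Its call was lost with all 18 arrays in the fit (limma adjusted p = 0.189) and with the methods' test after adjustment (0.0649). Igfbp4 (1423756_s_at), an insulin-like growth factor binding protein, was called lower at −1.25 (limma adjusted p = 0.0367), but mESC clone 2 (−0.14) lay within the OSKM values and the call was lost under 10 of 15 alternatives. These were the 3 called of 29 probe sets for receptors and signalling genes, beside 7.73% called of named and 3.92% of all probe sets. With all 18 arrays in the fit 0 of the 29 were called. The mean of all fibroblast markers on an array ran from −0.37 to −0.14 in OSKM iPSCs, from −0.73 to −0.45 in mESCs and from 4.57 to 6.57 in MEFs. OSKM iPSCs had grown with feeder cells, and the part of fibroblast RNA in these differences was not tested. In these bulk samples fewer cells of a type and less RNA per cell cannot be told apart.

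The other lists were small. At the 7.73% called of named and 3.92% of all probe sets, a count of 0 or 1 says little about them. Of mesenchymal regulators, Cdh11 alone was called of 19 probe sets (median 0.07). Imprinted genes gave 0 called of 5, with Slc38a4, an amino acid transporter, at 0.74. Metabolic genes of pluripotent cells gave 0 of 13, with Gldc, the glycine decarboxylase, at 0.16 and Chchd10 at −0.25. Immune and interferon genes gave 0 of 9, X inactivation and Y-linked genes 0 of 6 and the trophoblast factor Tfap2c 0 of 3. Of 2 primitive endoderm markers, Pdgfra was called lower. These counts are by limma. At an unadjusted p under 0.05 and no fold threshold they were 3 imprinted, 8 metabolic, 4 immune, 1 X or Y and 1 trophoblast probe set, and with the methods' t-test after adjustment 2, 4, 3, 0 and 1. Of the 931 named probe sets, 485 passed the former rule and 301 the latter. Of all 45037, 15018 and 8570 did. Contractile and germ layer genes had 0 probe sets with a symbol.

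**Figure D4:**
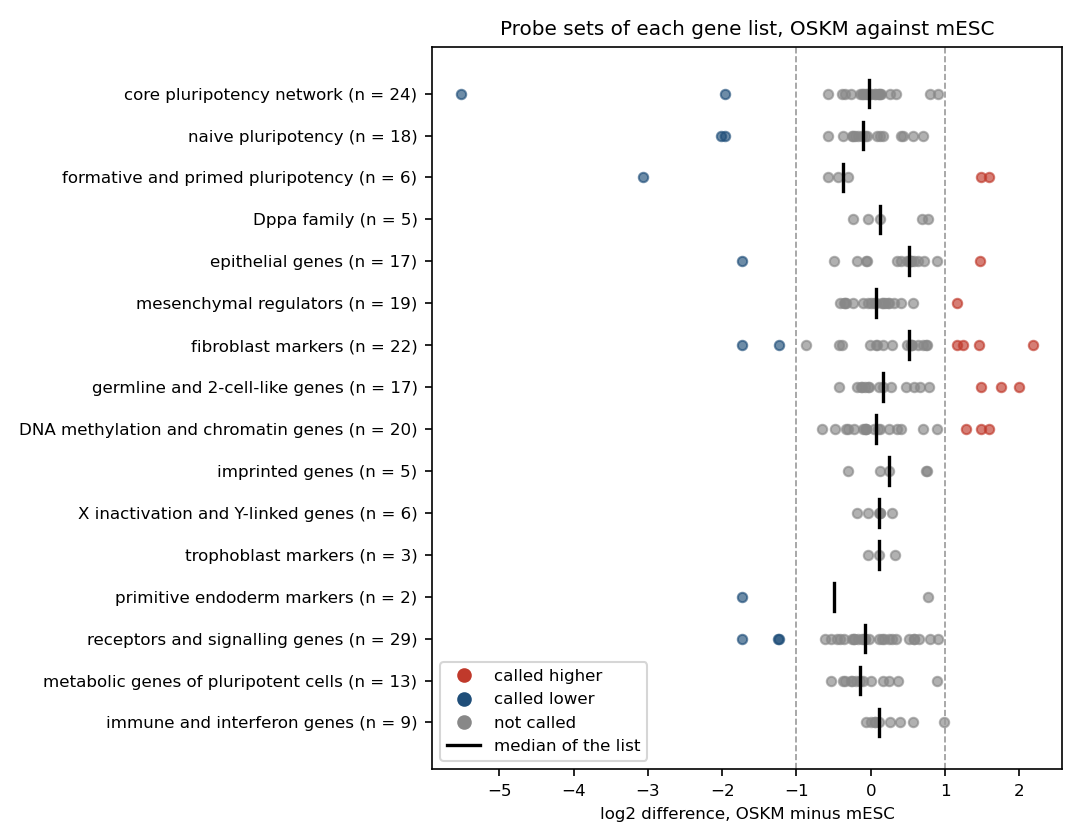
Log2 differences of OSKM minus mESC (x axis) for the probe sets of each list with n probe sets, as points coloured by call, with a black tick at the list's median and dashed lines at 2-fold. Most points lie between the dashed lines, and both epithelial and fibroblast lists have their median at 0.51.

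Among regulators of transcription and of signalling outside those lists, Id3 and Vgll3 were higher and Egr1, Ebf1 and Amot lower. Id3 (1416630_at), an inhibitor of bHLH factors and a target of BMP signalling, was at 0.41, 0.16, 0.24 and 0.53 in OSKM iPSCs and at −1.46, −1.03 and −1.88 in mESCs, a difference of 1.79 (1.40 to 2.18, limma adjusted p = 4.66e-05). Vgll3, a cofactor of TEAD factors, gave 2.25 and 1.62 in 2 probe sets. Egr1 (1417065_at), an immediate early gene downstream of ERK, was at −0.92, −1.19, −1.45 and −1.06 against 0.06, 0.00 and 0.81, a difference of −1.44 (−1.88 to −1.01, limma adjusted p = 0.000369), and Amot, a regulator of Hippo signalling, differed by −1.45. Ebf1, a helix-loop-helix factor, gave −1.33 (1416301_a_at) and −1.04 (1448293_at) in its called probe sets and −0.46 in one that was not called. Both of its calls were lost with all 18 arrays in the fit, the first also after quantile normalization (−0.92), and the second also with the replicate block (−0.96), without OSKM clone 4 (−0.96) and without mESC clone 2 (−0.84). The call of Egr1 was lost with all 18 arrays (limma adjusted p = 0.0581), and that of 1 Vgll3 probe set after quantile normalization, under which Egr1 stood at −2.34. Pmp22, a peripheral myelin protein and no such regulator, was also higher, by 1.83, or by 1.12 after quantile normalization.

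A further 44106 probe sets had no symbol, and 1693 of them were called (3.84%). The highest were 1434046_at, from −5.12 ± 0.25 (SD, n = 3) in mESCs to 0.13 ± 0.15 (n = 4) in OSKM iPSCs, and 1448194_a_at, from −5.11 ± 0.23 to −0.02 ± 0.12. Their MEF means stood far apart, at −4.09 and 0.58. The lowest were 1445226_at, from 5.25 ± 0.12 to −0.08 ± 0.22, and 1451867_x_at, from 5.03 ± 0.31 to −0.13 ± 0.22, both with differences of −3.37 after quantile normalization. What these probe sets measure is not given by the authors' lists.

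The called probe sets were also read in the other iPSC groups, which share the same mESC arrays as reference and are given side by side without a test. The 889 called higher in OSKM iPSCs had median levels of 0.16 in OSKM, 0.13 in OE + EpEX and 0.12 in KE + EpEX iPSCs, and of −1.21 in mESCs and −0.76 in MEFs. The 876 called lower had medians of −0.17, 0.04 and −0.10 in the 3 iPSC groups, 1.16 in mESCs and 0.00 in MEFs. These probe sets were chosen for their difference between OSKM iPSCs and mESCs, and centring on 18 arrays, most of them of iPSCs, holds the iPSC medians near 0, so the order of the medians is no finding. Of the 72 named probe sets, the 16 called higher among those listed lower than in MEFs had a MEF median of 4.84, and their median was −0.02 in OSKM iPSCs and −1.37 in mESCs.

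**Figure D5:**
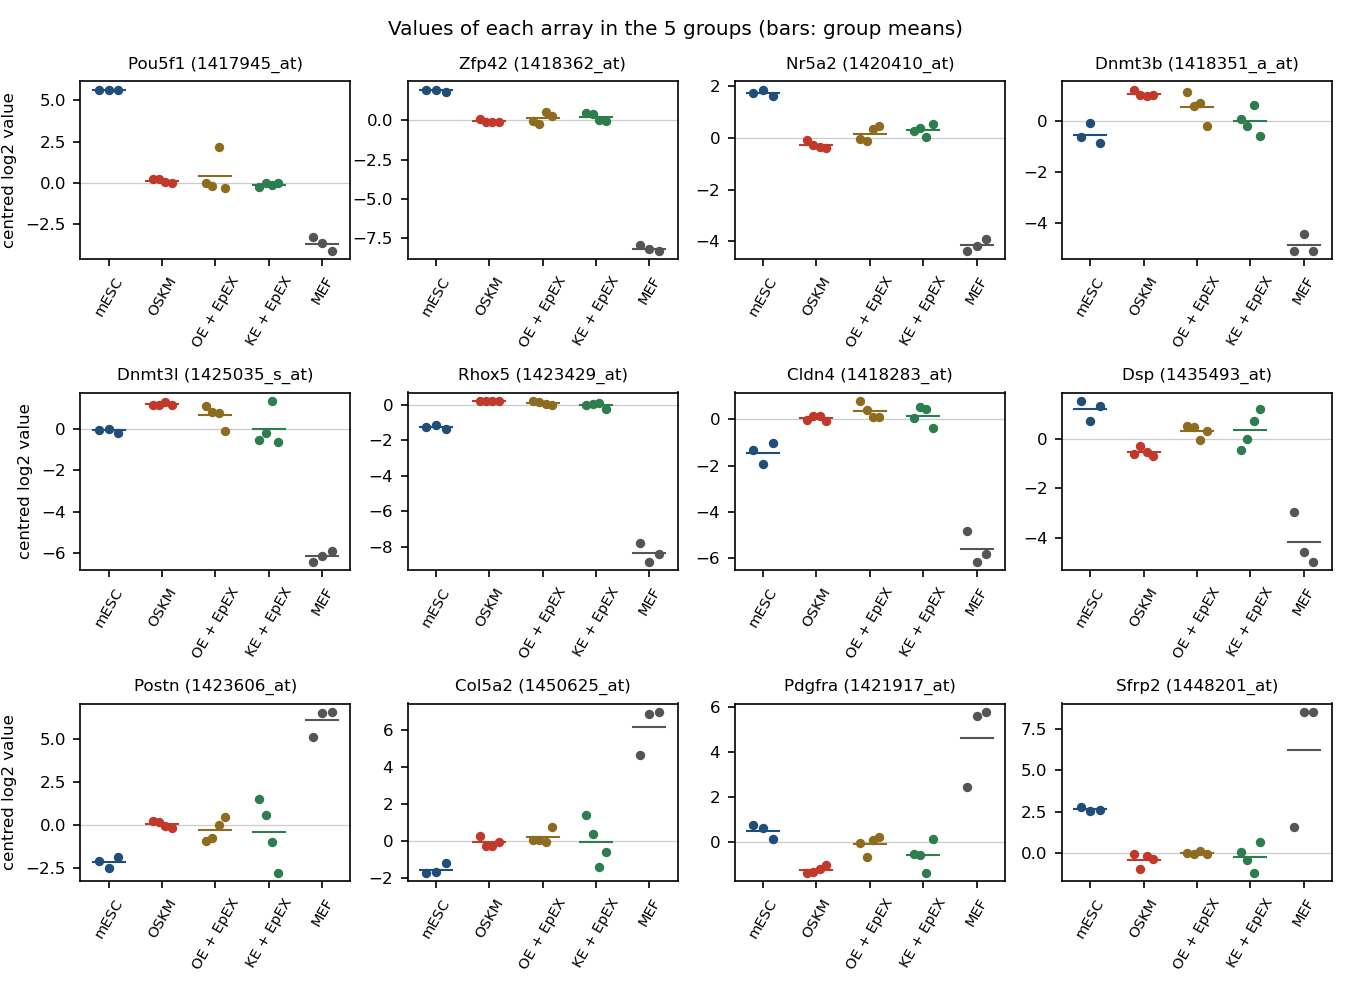
Centred log2 values of every array (points) and group means (bars) of mESCs, OSKM, OE + EpEX and KE + EpEX iPSCs and MEFs for 12 probe sets, with a y axis of its own in each panel. Pou5f1, Zfp42 and Nr5a2 have their highest mean in mESCs, Dnmt3b and Dnmt3l have their highest mean in OSKM iPSCs, and Postn and Col5a2 have their lowest mean in mESCs, although single KE + EpEX clones lie as low.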

How the data were processed

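RNA from 18 samples had been measured on Affymetrix mouse arrays, and 7 of these arrays were used here. Log2 values were deposited, exported by the authors from GeneSpring GX with every probe set centred on its own median across the 18 arrays. The submitters' processing notes name MAS5 and RMA without a role. The authors also deposited 2 lists of probe sets with fold ratios to MEFs and gene symbols. The ratios were not used, and symbols came from these lists alone. Of 687 different single symbols, 647 were current in RefSeq, 35 matched as older names and 5 were unmatched.

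Groups followed the sample labels. Group means were fitted in limma 3.58.1 under R 4.3.3 (lmFit, then eBayes), and p-values were adjusted by Benjamini-Hochberg over 45037 probe sets once 64 controls had been removed. Calls needed an adjusted p below 0.05 together with a 2-fold difference. Intervals are the 95% intervals of the moderated fit. The fit was tested on simulated data. Identical arrays were looked for and 0 pairs were found. The number of arrays limits the precision. Signal over background is unknown, so dim probe sets could not be filtered, and a filter on spread over the 18 arrays was tried in place of that. Further alternatives were a fit of all 18 arrays, quantile normalization, median centring of arrays, trended robust eBayes, other thresholds, the methods' t-test, a replicate block, and the omission of single arrays.

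Genes named were those of 18 lists, the 15 highest and 15 lowest called probe sets with a symbol and no overlap, the 2 highest and 2 lowest without a symbol, and the 5 with the widest range over OSKM clones. Other genes, among them the remaining called ones, were added after their values were seen. Some list members are not reported here by name, though the counts over lists include them. The comparison, the members and the lists were chosen with earlier results of these data known. Python 3.11.15 (numpy 2.4.6, pandas 2.3.3, matplotlib 3.10.9) served for summaries and figures.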

Additional observations from a re-analysis of the deposited data

Results flagged for a closer look

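In 7 of 126 groups of 4 OSKM values, 1 clone stood apart from the other 3 by more than Dixon's 95% limit, where chance alone flags about 1 in 20 groups, or 6.3. Clone 1 was apart for Zfp42 (0.09, others −0.13 to −0.09), one Prnp probe set (−0.94, others near −1.19), one Dusp9 probe set (0.21, others 0.40 to 0.43) and Rif1 (1437179_at, 0.22, others −0.16 to −0.10). Clone 3 was apart for Dnmt3l (1.33, others from 1.18), Igfbp4 (1423756_s_at, 0.09, others −0.25 to −0.20) and Dcn (−0.40, others −0.03 to 0.04). For Zfp42, Prnp, Dusp9 and Dnmt3l the clone that stood apart still lay on the same side of all mESC values as the other clones. The mESC group, with 3 arrays, was not examined in this way.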

How the results depend on the processing

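The 1765 calls came to 1333 after quantile normalization, 1078 of them shared, and to 1476 with all 18 arrays in the fit. They rose to 4970 at 1.5-fold and 10755 without a fold threshold, and to 8570 with the methods' t-test after Benjamini-Hochberg adjustment and 14027 at its unadjusted p under 0.05. In the same order the 72 calls with a symbol rose to 185, 376, 301 and 447, and the 19 calls among the lists to 41, 89, 66 and 95. With all 18 arrays in the fit the lists held 12 calls. Leaving out 1 array at a time gave 1672 to 2059 calls, 71 to 75 with a symbol and 18 to 21 in the lists. Of 75 called probe sets that are named or listed, 34 kept the call under all 15 alternatives, 28 lost it after quantile normalization and 24 with all 18 arrays in the fit. Without mESC clone 2 the calls of 5 were lost, more than without any other clone. The cause was not tested.

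OSKM and mESC samples share replicate numbers. Deviations from the group means correlated at 0.254, −0.0482 and 0.0663 for the numbers 1, 2 and 3, so the numbers were not taken as pairs. With the number as a replicate block there were 1746 calls, 75 with a symbol and 20 in the lists, and 2 of the 75 calls were lost.

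The sign changed only for differences that were not called. After quantile normalization these were Nr0b1 (0.05), Cyr61 (−0.06) and S1pr3 (−0.68). With arrays centred on their medians it was Nanog (0.00). With the replicate block they were Comp (−0.01), Nanog (0.01) and Rif1 (1437179_at, 0.01). With 1 array left out the range was −0.01 to 0.31 for Comp, −0.05 to 0.01 for Nanog, −0.18 to 0.18 for Nr0b1, −0.23 to 0.06 and −0.29 to 0.04 for the Fgf4 probe sets, −0.11 to 0.07 (1429490_at) and −0.12 to 0.01 (1437179_at) for Rif1, −0.03 to 0.43 for S1pr3 and −0.02 to 0.24 for Tet1 (1455425_at).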

Other observations

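Genes of cell division and of the extracellular matrix were grouped into 4 lists that were chosen after the symbols were seen. Of 78 probe sets for 61 genes of mitosis and cytokinesis, 0 were called by limma, beside 7.73% of named and 3.92% of all probe sets. An unadjusted p under 0.05 was reached by 41, beside 485 of the 931 named probe sets. With no fold threshold 24 had a limma adjusted p under 0.05 (23 by the methods' t-test), beside 376 of the 931. The median difference was −0.16, with 77 of 78 intervals within 1 log2 unit of 0. Of 53 probe sets for DNA replication and repair, 2 were called lower in OSKM iPSCs and 0 higher, beside 27 lower and 45 higher of the 931 named. The 2 were Ube2t, a ubiquitin-conjugating enzyme of the Fanconi anaemia pathway (−1.17), and Wdr76 (−1.16), and both calls were lost after quantile normalization, at −0.87 and −0.85.

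Of 75 probe sets for the extracellular matrix and its enzymes, 5 were called higher (Col5a2, Col6a3, Postn, Timp3 and Tnc) and 1 lower (Vcan), with a median of 0.18. This count is near the 7.73% called of named probe sets, beside 3.92% of all. The calls of Col5a2, Col6a3 and Postn are the same ones as among the fibroblast markers. After quantile normalization 2 were called higher and 3 lower. Tnc (1416342_at), the matrix glycoprotein tenascin C, was at 0.36, 0.07, 0.24 and 0.01 in OSKM iPSCs and at −1.26, −1.41 and −1.02 in mESCs. Vcan (1427256_at), the proteoglycan versican, was at −1.40, −1.33, −1.55 and −1.66 against 0.46, 0.03 and 0.72. Its difference of −1.89 had a limma adjusted p of 1.22e-05, and of 0.0741 with all 18 arrays in the fit, and it stood at −2.89 after quantile normalization. The call of Tnc was also lost with all 18 arrays. Timp3, an inhibitor of metalloproteases, was called in 1 of 4 probe sets, which gave 1.02, while the other 3 ranged from 0.05 to 0.93, and that call was lost under 5 of 15 alternatives. Of 62 probe sets for transcription regulators of fibroblasts, 3 were called higher and 3 lower, with a median of −0.01. This too stands beside 7.73% called of named and 3.92% of all probe sets.

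Of 164 genes with more than 1 probe set, 14 had any called, 6 had all called and 8 only some, and 0 were called in both directions. Prnp, the prion protein, was among those called in part, at −0.61 in the probe set that was not called and from 0.28 to −0.29 in mESCs against −0.94 and below in OSKM iPSCs in the other. That call was lost with all 18 arrays in the fit (limma adjusted p = 0.082), and the difference of −1.20 stood at −2.15 after quantile normalization. Armcx3, an armadillo repeat protein with 1 probe set, differed by −2.02 (−2.47 to −1.58).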
